A study of Mus musculus with 11 samples.

Results

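The genes described here encode the nuclear-encoded subunits of the mitochondrial respiratory chain and of ATP synthase, together called oxidative phosphorylation. They were taken by symbol from the count tables: names starting with Nduf followed by a, b, c, s or v and a digit (complex I), Sdha to Sdhd (complex II), names starting with Uqcr (complex III), Cox4 to Cox8 followed by a letter (complex IV) and Atp5 (complex V), without pseudogene symbols containing -ps and without the assembly factors Ndufaf. This gave 89 of 56980 Ensembl genes: 40 of complex I, 4 of complex II, 8 of complex III, 19 of complex IV and 18 of complex V. They carry 88 distinct symbols, because Atp5o has 2 gene IDs. The rule used names and no measured value, although the genes were chosen with earlier results of these data known.

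Total RNA depleted of ribosomal RNA was sequenced from primary lung fibroblasts, connective tissue cells cultured from mouse lung. The 11 libraries were 3 cGAS KO males, 3 cGAS KO females, 3 WT males and 2 WT females, each from a mouse of its own. cGAS is the cytosolic DNA sensor that starts the STING and interferon response, and the series asks which transcripts change in fibroblasts after its loss. Culture of every line used 15% serum in DMEM/F12, with 5% O2, 5% CO2 and a temperature of 37 °C. The allele, strain, age and passage were not given in the labels, and the labels' extraction text speaks of pulverised tissue although the samples are named as cells.

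Complex I oxidises NADH, complex II oxidises succinate, complex III passes the electrons to cytochrome c and complex IV hands them to oxygen. Complexes I, III and IV pump protons across the inner mitochondrial membrane, and complex V, ATP synthase, lets them flow back to make ATP. Complexes I, III, IV and V combine nuclear-encoded subunits with subunits encoded in mitochondrial DNA, while all subunits of complex II are nuclear-encoded. The nuclear genes are ubiquitously expressed, a few have tissue-specific copies, and their promoters often lack a TATA box and carry sites for NRF1, for ETS-type factors such as NRF2/GABP and for YY1. In lung, a second form of the complex IV subunit 4, Cox4i2, is known for its expression and its response to oxygen.

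The promoters are shown because letters shared by part of these genes are a feature that the naming rule did not use. RefSeq windows of 300 bases, 250 before to 50 after the gene start (GRCm38.p6), were found for 68 of the 88 symbols. A few of these genes have a second window, and a gene counts as holding the letters if any of its windows does, here and over all genes. The letters GCGCANGCG, of the NRF1 type, stood on either strand in 20 of the 68 genes, or 29.4% (95% Wilson interval 19.9% to 41.1%), beside 9.63% of 17491 protein-coding genes. The ETS letters CCGGAAG stood in 16 genes (23.5%, beside 12.9%), the YY1 letters AAGATGGCG in 7 (10.3%, beside 2.14%) and the TATA box letters TATAAA in 7 (10.3%, beside 14.8%). The NRF1-type and YY1 letters can overlap at GCG, NRF1-type matches on opposite strands can overlap each other, and a match is a description of the letters and not a bound site. The stretches below are the 150 bases before the gene start, 5′ to 3′ on the gene's strand, with NRF1-type and ETS letters in capitals. They were picked as 1 or 2 genes per complex whose values are described further on. All of them hold NRF1-type or ETS letters, so they do not stand for all 68 genes. The windows of Ndufa1, Ndufc2 and Cox7a1, also described further on, held neither.
Ndufb7 (complex I, chr8:83566608-83566757, plus strand): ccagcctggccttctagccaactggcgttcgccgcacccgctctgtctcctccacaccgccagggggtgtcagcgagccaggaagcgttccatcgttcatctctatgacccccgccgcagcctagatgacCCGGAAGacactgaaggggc
Sdha (complex II, chr13:74350241-74350390, minus strand): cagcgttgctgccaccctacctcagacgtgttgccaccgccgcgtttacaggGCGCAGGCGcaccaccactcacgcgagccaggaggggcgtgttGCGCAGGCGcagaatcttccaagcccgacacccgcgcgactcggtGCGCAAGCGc
Sdhd (complex II, chr9:50603850-50603999, minus strand): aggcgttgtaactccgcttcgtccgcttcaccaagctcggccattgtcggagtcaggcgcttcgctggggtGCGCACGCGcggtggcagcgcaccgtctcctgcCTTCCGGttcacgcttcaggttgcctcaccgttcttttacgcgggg
Uqcr11 (complex III, chr10:80406822-80406971, minus strand): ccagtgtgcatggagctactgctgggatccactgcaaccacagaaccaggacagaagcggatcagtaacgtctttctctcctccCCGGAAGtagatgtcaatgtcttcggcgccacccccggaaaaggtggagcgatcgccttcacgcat
Cox6b1 (complex IV, chr7:30626115-30626264, minus strand): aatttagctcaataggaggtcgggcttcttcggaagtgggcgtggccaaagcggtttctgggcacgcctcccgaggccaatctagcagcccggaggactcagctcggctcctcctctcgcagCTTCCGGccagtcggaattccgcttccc
Atp5h (complex V, chr11:115419920-115420069, minus strand): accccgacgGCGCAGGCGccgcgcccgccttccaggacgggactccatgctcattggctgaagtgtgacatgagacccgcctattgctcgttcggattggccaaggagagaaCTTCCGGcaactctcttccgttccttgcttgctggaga
Atp5k (complex V, chr5:108434400-108434549, minus strand): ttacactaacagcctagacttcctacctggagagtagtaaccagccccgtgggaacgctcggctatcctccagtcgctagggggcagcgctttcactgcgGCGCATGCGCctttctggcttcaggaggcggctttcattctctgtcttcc
Sdha, the catalytic subunit of complex II, had NRF1-type letters beginning 98, 55 and 10 bases before the start. Sdhd, a membrane anchor of the same complex, had NRF1-type letters from 79 bases and ETS letters from 46 bases before it. Atp5h had the same pair of motifs, from 141 and 38 bases. Atp5k had 2 overlapping NRF1-type matches on opposite strands, from 50 and 49 bases, and ETS letters from base 13 after the start, outside the stretch shown. Ndufb7, Uqcr11 and Cox6b1 had ETS letters from 20, 66 and 28 bases before the start, and an NRF1-type match in Uqcr11 crosses the start itself from 5 bases before it.

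Total counts per library ran from 27261958 to 48039328, and the 89 genes held 123079 to 246723 of them. Levels are in CPM, which are counts scaled to a common library size with TMM factors. Where a gene has 0 counts, its level may still reach 0.0624 to 0.11 CPM, the worth of 3 counts, and intervals and floors cover counting error only. Cgas, the targeted gene, had 52 to 111 counts in KO against 222 to 403 in WT (log2 fold change −1.98, adjusted p = 0.000954), with no KO library reaching a WT one. The fibroblast markers summed to 25752 to 32036 CPM in KO and 27351 to 35568 CPM in WT. Macrophage markers were also present, at 6683 to 11708 CPM in KO and 4869 to 6936 CPM in WT summed over 12 genes, with the lymphocyte markers Cd3e and Cd79a under 1 CPM. In such bulk samples, fewer cells of a type and less RNA per cell cannot be told apart. WT female 2 stood apart from the other libraries and held 10.2% of its counts on repeats, against 5.3% to 8.1% in the others. Counts over both sexes are also given without it for all the genes together and for complexes IV and V. So are the fold changes described over both sexes that turned. Female and male libraries carry 2 styles of file name, so sex and that naming set cannot be told apart.

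Levels per transcript length spanned a wider range in complexes I, IV and V than in complexes II and III. They are given as CPM per kilobase of the principal transcript, averaged over the 11 libraries. Atp5b, the catalytic beta subunit of ATP synthase, stood highest at 292 CPM per kilobase, followed by Cox4i1, subunit 4 of complex IV, at 194, Cox8a at 180.4 and Atp5a1, the alpha subunit, at 174. Leaving out processed pseudogenes and genes under the low-count filter, the median was 26.4 CPM per kilobase over 37 genes of complex I, 41.9 over 4 of complex II, 60.7 over 8 of complex III, 64.1 over 15 of complex IV and 67.7 over 18 of complex V. The lowest in each were Ndufb2 at 1.88 CPM per kilobase, Sdhc at 24.6, Uqcrc2 at 33.4, Cox6a2 at 1.75 and Atp5s at 2.20. Atp5s is named with ATP synthase but is a coupling factor and not one of its structural subunits. For Ndufb2, Sdhc and Atp5g1 the annotated principal transcript is long (4371, 3171 and 4715 bases), which lowers the value per kilobase. Summed over genes, complex V held 40.3% of the CPM of the 89 genes, complex I 25.5%, complex IV 18.4%, complex III 9.11% and complex II 6.8%.

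**Figure D1:**
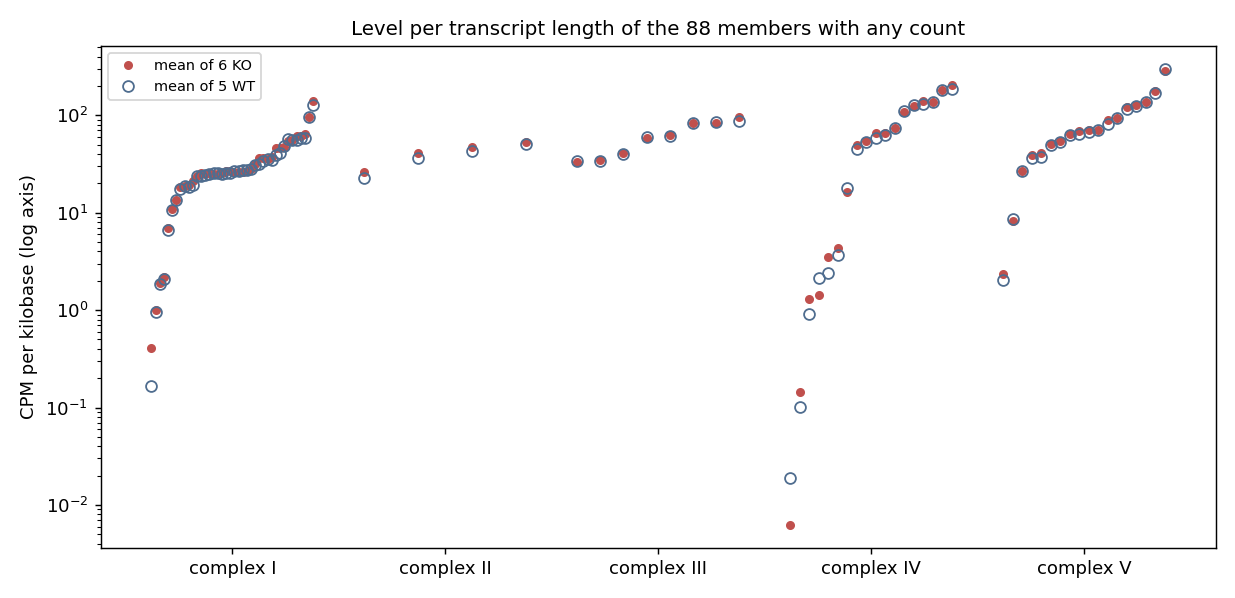
Level of each gene per transcript length (CPM per kilobase, log axis), ordered within each complex, with the mean of the 6 KO libraries as filled points and the mean of the 5 WT libraries as rings. The 2 means lie close together for most genes, and the pairs that come apart most are genes at about 1 CPM or less; Cox8c, at 0 counts in every library, is not drawn.

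Variation between libraries was similar across the 5 complexes. Leaving out the same genes, the median coefficient of variation over the 11 libraries, KO and WT together, was 10.1% in complex I, 11% in complex II, 10.2% in complex III, 13.7% in complex IV and 11.1% in complex V. Atp5d, the delta subunit, was the steadiest at 3.8%, with 133 ± 4.11 CPM in KO (SD, n = 6) against 131 ± 6.15 CPM in WT (SD, n = 5). Cox6a2, the muscle form of subunit 6A, varied most among them, by 52.4% at about 1 CPM, and WT female 2 alone held its highest value.

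Loss of cGAS went with small shifts of these genes, mostly toward higher values in KO, and none passed the test over both sexes. Of the 89 genes, 85 passed the low-count filter, and 0 of them had an adjusted p under 0.05 in KO against WT (edgeR, both sexes), beside 0.00448% of the 22298 entries tested, a single gene, Cgas itself. The log2 fold change was positive in 68 of 85 genes and its median was 0.061, where the median over all entries was −0.009 and 48.5% of entries were positive. At an unadjusted p below 0.05, 8 genes were higher in KO and 0 lower, against 10.5% of all entries higher and 6.64% lower, so the share of 8 in 85 does not stand out from the background. No gene separated the 6 KO from the 5 WT libraries without overlap, where 1.01% of entries did so upward and 0.354% downward. The log2 fold changes ran from −0.56 to 0.58, and the smallest adjusted p was 0.18. Under 3 other scalings of library size the median stayed positive, between 0.045 and 0.053, with 61 to 63 of 85 genes positive. Without WT male 3 the median was 0.0135 with 52 of 85 genes positive and 2 higher at an unadjusted p below 0.05, and without WT male 1 there were 4 higher and 1 lower.

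Summed per complex, the transcripts of complex II differed most in proportion between KO and WT, at 331 ± 32.8 CPM in KO (SD, n = 6) against 300.3 ± 18.7 CPM in WT (SD, n = 5). Complex I summed to 1206 ± 75.4 CPM in KO and 1167 ± 43.9 CPM in WT, and complex III to 426 ± 31.7 CPM in KO and 424 ± 20.9 CPM in WT. Complex IV summed to 869 ± 67.7 CPM in KO and 845 ± 76.8 CPM in WT, and complex V to 1885 ± 113 CPM in KO and 1871 ± 203 CPM in WT. All 5 pairs of sums overlapped between KO and WT libraries. Without WT female 2 the WT sums were 1181 CPM for complex I, 305 for II, 424 for III, 812 for IV and 1944 for V. The WT mean of complex V then lay above the KO mean, and the gap in complex IV was wider. These sums are not adjusted for sex, and the WT libraries left are mostly male. In KO, complex V summed to 1981 CPM in males against 1789 CPM in females. With sex as a covariate and WT female 2 left out, 13 of 18 complex V genes were higher in KO (median log2 fold change 0.0573).

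**Figure D2:**
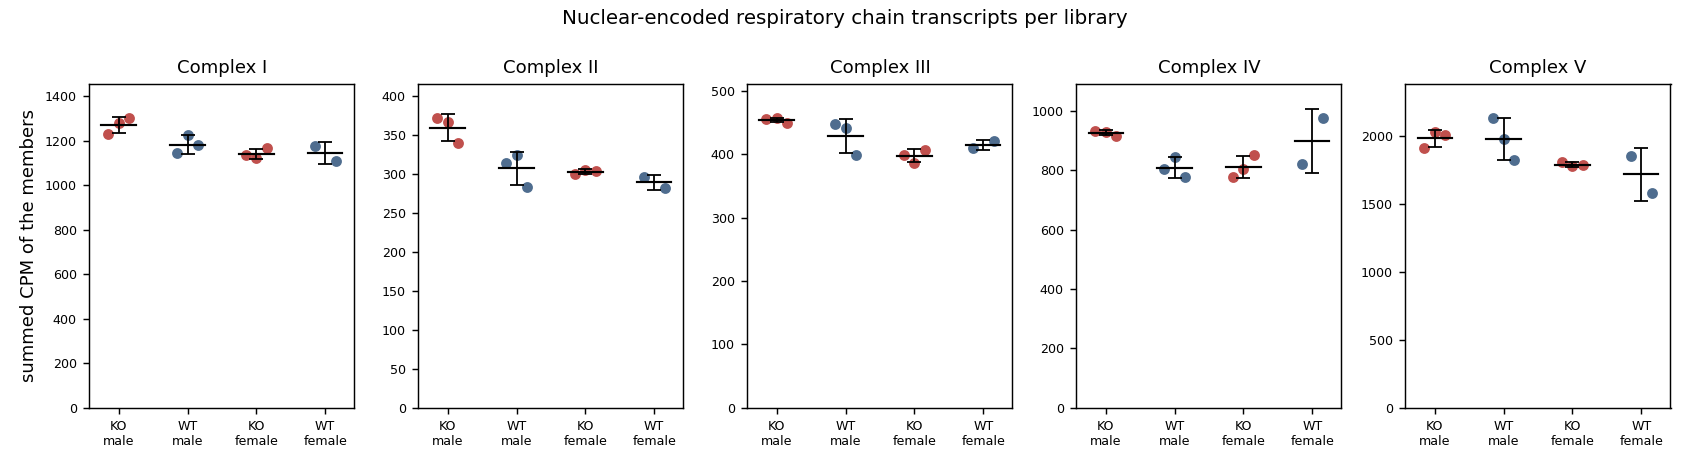
Summed CPM of the members of each complex in each library (points), with the mean and SD of each group (bars); groups run KO male, WT male, KO female, WT female. The KO males stand above the WT males in complexes I to IV and above the KO females in all 5, and WT female 2 is the highest point of complex IV and the lowest of complex V.

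In complex I, 33 of the 39 genes tested were higher in KO and the median log2 fold change was 0.057, or 0.0156 with 26 of 39 higher without WT male 3. Ndufa1, an accessory membrane subunit encoded on the X chromosome, had 20.8, 20.4 and 19.6 CPM in KO males against 16.9, 17.2 and 15.4 CPM in WT males, and 18.6, 17.9 and 17.6 CPM in KO females against 17.8 and 14.7 CPM in WT females. The KO males all stood above the WT males, while the females overlapped, and over both sexes the log2 fold change was 0.23 ± 0.073 (SE), adjusted p = 0.18. Ndufc2, another accessory subunit of the membrane arm, had 34.3, 34.4 and 31.8 CPM in KO males against 27.9, 27.6 and 26.8 CPM in WT males, and 28.7, 28.5 and 29.2 CPM in KO females against 28.7 and 28.6 CPM in WT females. Its KO males were again above every other library and its female groups lay on top of each other (both sexes 0.16 ± 0.068 (SE), adjusted p = 0.257). Ndufv3, an accessory subunit of the NADH-oxidising module, had 57.1 ± 2.99 CPM in KO (SD, n = 6) against 50.3 ± 5.76 CPM in WT (SD, n = 5), with a log2 fold change of 0.19 ± 0.083 (SE), adjusted p = 0.277. The 7 core subunits that carry out electron transfer from NADH to quinone had a median log2 fold change of 0.054 with 6 of 7 positive, close to the 0.059 of the 32 accessory genes tested (27 positive).

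Ndufa4 carries a complex I name but its product is now counted as a subunit of complex IV, and Ndufa4l2 is its hypoxia-responsive paralog. In these cells the paralog was the higher of the pair per length. The ratio of Ndufa4l2 to Ndufa4 was 2.43 to 3.61 in KO and 1.15 to 3.78 in WT libraries. Every library was grown at 5% O2, and the part of oxygen in this ratio was not tested. Ndufa4l2 had 110.4, 127 and 139 CPM in KO males against 64.1, 118 and 153 CPM in WT males, and 142, 125 and 134 CPM in KO females against 151 and 113 CPM in WT females. WT male 1 held its lowest value and WT male 3 its highest, so the WT males alone spanned the whole range of the series (both sexes 0.10 ± 0.18 (SE), adjusted p = 0.809). Ndufa4 had 28.9 ± 4.22 CPM in KO (SD, n = 6) against 29.3 ± 5.23 CPM in WT (SD, n = 5) (0.026 ± 0.080 (SE), adjusted p = 0.894, and −0.011 without WT female 2).

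Complex II, succinate dehydrogenase, had the largest median shift of the 5 complexes, a log2 fold change of 0.17 over both sexes with all 4 genes positive, and 3 of the 4 had an unadjusted p below 0.05. Without WT male 3 the median was 0.133 and 1 of the 4 did, and within the males 0 of 4, against 4 of 4 with it. Sdha, the flavoprotein that oxidises succinate, had 154, 146 and 138 CPM in KO males against 130.1, 135 and 117 CPM in WT males, and 124, 131 and 127 CPM in KO females against 122 and 118 CPM in WT females. Its KO libraries stood above the WT libraries within each sex (both sexes 0.15 ± 0.063 (SE), adjusted p = 0.262). Sdhb, the iron-sulfur subunit, had 54.1, 52.5 and 49.6 CPM in KO males against 45.2, 48.0 and 40.3 CPM in WT males, and 40.6, 39.8 and 42.7 CPM in KO females against 39.8 and 32.4 CPM in WT females. The KO males were above the WT males and the females overlapped (both sexes 0.21 ± 0.073 (SE), adjusted p = 0.203). Sdhc, a membrane anchor, had 88.6, 96.0 and 87.1 CPM in KO males against 76.6, 78.8 and 72.9 CPM in WT males, and 74.4, 75.4 and 73.5 CPM in KO females against 73.6 and 61.9 CPM in WT females. The KO males were again separate from all other libraries, and the log2 fold change over both sexes was 0.20 ± 0.065 (SE), adjusted p = 0.186. Sdhd, the second anchor, had 74.9, 73.0 and 65.1 CPM in KO males against 62.4, 63.3 and 53.2 CPM in WT males, and 60.7, 58.8 and 60.7 CPM in KO females against 61.1 and 69.8 CPM in WT females. Here KO was higher than WT in males and lower in females, without overlap in either sex (both sexes 0.083 ± 0.090 (SE), adjusted p = 0.659, and 0.16 without WT female 2).

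In complex III, 6 of 8 genes were higher in KO and the median log2 fold change was 0.025, or −0.032 without WT male 3. Uqcr11, the smallest subunit, had 48.3, 46.1 and 46.5 CPM in KO males against 40.9, 41.8 and 37.2 CPM in WT males, and 36.5, 38.1 and 40.9 CPM in KO females against 38.9 and 36.3 CPM in WT females. The KO males were above every other library and the females overlapped (both sexes 0.14 ± 0.067 (SE), adjusted p = 0.298). Uqcrc1 and Uqcrc2, the 2 core proteins on the matrix side, had 97.4 ± 8.65 CPM in KO (SD, n = 6) against 98.3 ± 16.7 CPM in WT (SD, n = 5), and 62.9 ± 2.81 CPM in KO (SD, n = 6) against 64.0 ± 4.34 CPM in WT (SD, n = 5). Of the exon bases of Uqcrc2, 19.7% lie under Pdzd9 on the opposite strand. The KO and WT libraries of both genes overlapped (adjusted p = 0.925 and 0.869). Uqcrfs1, the Rieske iron-sulfur protein, had 55.8 ± 4.83 CPM in KO (SD, n = 6) against 54.8 ± 4.99 CPM in WT (SD, n = 5) (adjusted p = 0.884), and the small subunits Uqcrq and Uqcrb had log2 fold changes of 0.044 and 0.035 (adjusted p = 0.84 and 0.858). Without WT female 2 the log2 fold changes were −0.052 for Uqcrc1, 0.033 for Uqcrc2, 0.11 for Uqcrfs1, −0.043 for Uqcrq and 0.10 for Uqcrb, so that Uqcrc1, Uqcrc2 and Uqcrq turned. Of the Uqcrb sequence, 25.4% of 50-base stretches occur in other genes, so its count may include or lose reads of those copies.

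Complex IV, cytochrome c oxidase, had the widest range of fold changes of the 5 complexes, and it holds most of the tissue-specific copies. Of 16 genes tested 10 were higher in KO, with a median log2 fold change of 0.073. Without WT male 3 the median was 0.00363 with 8 of 16 higher, and without WT female 2 it was 0.122 with 15 of 16 higher. Cox7a1, the form of subunit 7A known from heart and skeletal muscle, had 2.22, 1.43 and 1.77 CPM in KO males against 0.777, 1.08 and 0.928 CPM in WT males, and 0.702, 1.31 and 0.917 CPM in KO females against 1.03 and 0.852 CPM in WT females. It ran from 0.70 to 2.22 CPM over the series, the KO males were above every other library, and over both sexes the log2 fold change was 0.58 ± 0.23 (SE), adjusted p = 0.241. Cox6a2, the muscle form of subunit 6A, had 0.845, 0.927 and 0.975 CPM in KO males against 0.922, 1.02 and 1.11 CPM in WT males, and 1.15, 0.81 and 1.14 CPM in KO females against 1.15 and 3.03 CPM in WT females. All libraries but 1 lay between 0.81 and 1.16 CPM, and WT female 2 alone stood at about 3 CPM. On the annotation 10.3% of its exon bases lie under Itgad, a leukocyte integrin on the opposite strand, and without a stated strand setting reads of the 2 genes cannot be told apart. The log2 fold change was −0.56 ± 0.26 (SE), adjusted p = 0.293, and −0.15 without WT female 2. Cox7b, encoded on the X chromosome, had 49.0 ± 6.46 CPM in KO (SD, n = 6) against 45.6 ± 6.77 CPM in WT (SD, n = 5) (0.14 ± 0.071 (SE), adjusted p = 0.337).

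The common form was far more abundant than the tissue-specific one in every library. Per length, the ratio of Cox4i2 to Cox4i1, the lung and the common form of subunit 4, was 0.0695 to 0.114 in KO and 0.048 to 0.171 in WT. That of Cox6a2 to Cox6a1 was 0.00987 to 0.0153 in KO and 0.0102 to 0.0329 in WT, that of the testis form Cox6b2 to Cox6b1 was 0.0178 to 0.0414 in KO and 0.0116 to 0.0473 in WT, and that of Cox7a1 to Cox7a2 was 0.0272 to 0.0704 in KO and 0.0251 to 0.0383 in WT. Cox4i1 itself had 173, 163 and 161 CPM in KO males against 137, 152 and 129 CPM in WT males, and 137, 145 and 149 CPM in KO females against 142 and 146 CPM in WT females, with KO males above all other libraries (both sexes 0.14 ± 0.072 (SE), adjusted p = 0.349). Cox4i2 had 11.5, 12.4 and 11.5 CPM in KO males against 6.31, 8.61 and 9.97 CPM in WT males, and 9.40, 9.85 and 16.2 CPM in KO females against 17.4 and 23.9 CPM in WT females. KO was higher than WT in males and lower than WT in females, without overlap in either sex, and over both sexes the log2 fold change was −0.10 ± 0.26 (SE), adjusted p = 0.876, against 0.13 without WT female 2. Cox6a1, Cox6b1, Cox6b2 and Cox7a2 had log2 fold changes of −0.030, 0.093, 0.21 and 0.010, with adjusted p of 0.439 or more. Without WT female 2 those of Cox6a1, Cox6b2 and Cox7a2 were 0.032, 0.50 and 0.074.

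Cox7a2l, a relative of subunit 7A that links complexes III and IV into supercomplexes, exceeded Cox7a2 per length in every library, by 1.54 to 2.29 times in KO and 1.16 to 3.13 times in WT. It had 151, 144 and 139.9 CPM in KO males against 98.2, 119.7 and 123 CPM in WT males, and 137, 142 and 161 CPM in KO females against 145 and 254 CPM in WT females. WT female 2 stood far above the rest, WT male 1 was lowest and the KO males were above the WT males, and the log2 fold change over both sexes was −0.006 ± 0.17 (SE), adjusted p = 0.992, against 0.25 (adjusted p = 0.2) without WT female 2. Cox8a, the common form of subunit 8, had 108, 106 and 99.9 CPM in KO males against 91.2, 94.0 and 84.6 CPM in WT males, and 91.2, 92.8 and 96.3 CPM in KO females against 95.2 and 132 CPM in WT females. KO males were above WT males here too, and WT female 2 was highest (both sexes −0.005 ± 0.11 (SE), adjusted p = 0.988, and 0.14 without WT female 2). Cox8b, a muscle form, had 1 to 4 counts in every library, Cox7b2 had 0 or 1 count, and Cox8c, a testis form, had 0 counts in all 11 libraries, which allows at most 0.11 CPM in any of them.

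In complex V, 15 of 18 genes were higher in KO, with a median log2 fold change of 0.070, or 0.0241 with 12 of 18 higher without WT male 3. Atp5k, the e subunit of the membrane part where ATP synthase dimers form, had 17.0, 17.7 and 19.3 CPM in KO males against 15.8, 17.5 and 13.8 CPM in WT males, and 11.3, 12.3 and 13.2 CPM in KO females against 11.2 and 10.4 CPM in WT females. Males stood above females in both genotypes, and KO against WT gave 0.19 ± 0.083 (SE), adjusted p = 0.271. Atp5h, the d subunit of the peripheral stalk, had 65.1, 61.7 and 64.1 CPM in KO males against 56.9, 55.2 and 49.7 CPM in WT males, and 57.2, 60.1 and 57.1 CPM in KO females against 58.4 and 58.1 CPM in WT females, with the KO males above the WT males and the females overlapping (both sexes 0.13 ± 0.067 (SE), adjusted p = 0.337). Of its sequence, 19.9% of 50-base stretches occur in other genes. Atp5l, the g subunit, had 37.4 ± 4.58 CPM in KO (SD, n = 6) against 34.6 ± 2.88 CPM in WT (SD, n = 5) (0.13 ± 0.068 (SE), adjusted p = 0.344).

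The catalytic subunits overlapped between KO and WT libraries. Atp5b had 545 ± 36.7 CPM in KO (SD, n = 6) against 575 ± 119 CPM in WT (SD, n = 5) (−0.038 ± 0.11 (SE), adjusted p = 0.89), and Atp5a1 had 439 ± 25.4 CPM in KO (SD, n = 6) against 421 ± 48.1 CPM in WT (SD, n = 5) (0.076 ± 0.076 (SE), adjusted p = 0.633). Without WT female 2, the lowest library for both, the log2 fold changes were −0.14 and 0.031. The c subunit of the proton-driven ring is made from 3 genes with the same mature product. Atp5g2 and Atp5g3 were about equally abundant per length, with a ratio of 0.856 to 0.975 in KO and 0.657 to 1.62 in WT, and Atp5g1 stood at 0.0544 to 0.0667 of Atp5g3 in KO and 0.0608 to 0.068 in WT, a ratio lowered by its long annotated transcript. Their log2 fold changes were −0.012, 0.028 and 0.048 for Atp5g1, Atp5g2 and Atp5g3, with adjusted p of 0.826 or more, and −0.092, 0.15 and −0.038 without WT female 2. The ratio of 1.62 belonged to WT female 2, and 38.3% of the 50-base stretches of Atp5g2 occur in other genes. The 2 entries of Atp5o, the subunit that joins the stalk to the catalytic head, overlap on the annotation and share 89.8% of the 50-base stretches of the shorter one, so their counts cannot be separated with confidence; both had a log2 fold change of 0.07, and of −0.005 and −0.008 without WT female 2.

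Some names under the rule are annotated as processed pseudogenes. Ndufb4c, Ndufs6b and Cox6c2 passed the low-count filter at 24 to 56, 6 to 28 and 2 to 17 counts, and Ndufa11b, at 1 to 14 counts, did not. None of the 3 tested had an adjusted p under 0.406. Some subunits lie outside the rule: Ndufb1, which the annotation used for names lists as Ndufb1-ps, had 40.2 ± 3.92 CPM in KO against 36.2 ± 2.14 CPM in WT (SD, n = 6 and 5, log2 fold change 0.16, adjusted p = 0.246), and Cyc1, cytochrome c1 of complex III, had 42.7 ± 2.09 CPM in KO against 45.5 ± 9.05 CPM in WT (log2 fold change −0.070, adjusted p = 0.773). Atp5md and Ndufab1 were at log2 fold changes of −0.12 and −0.060.

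**Figure D3:**
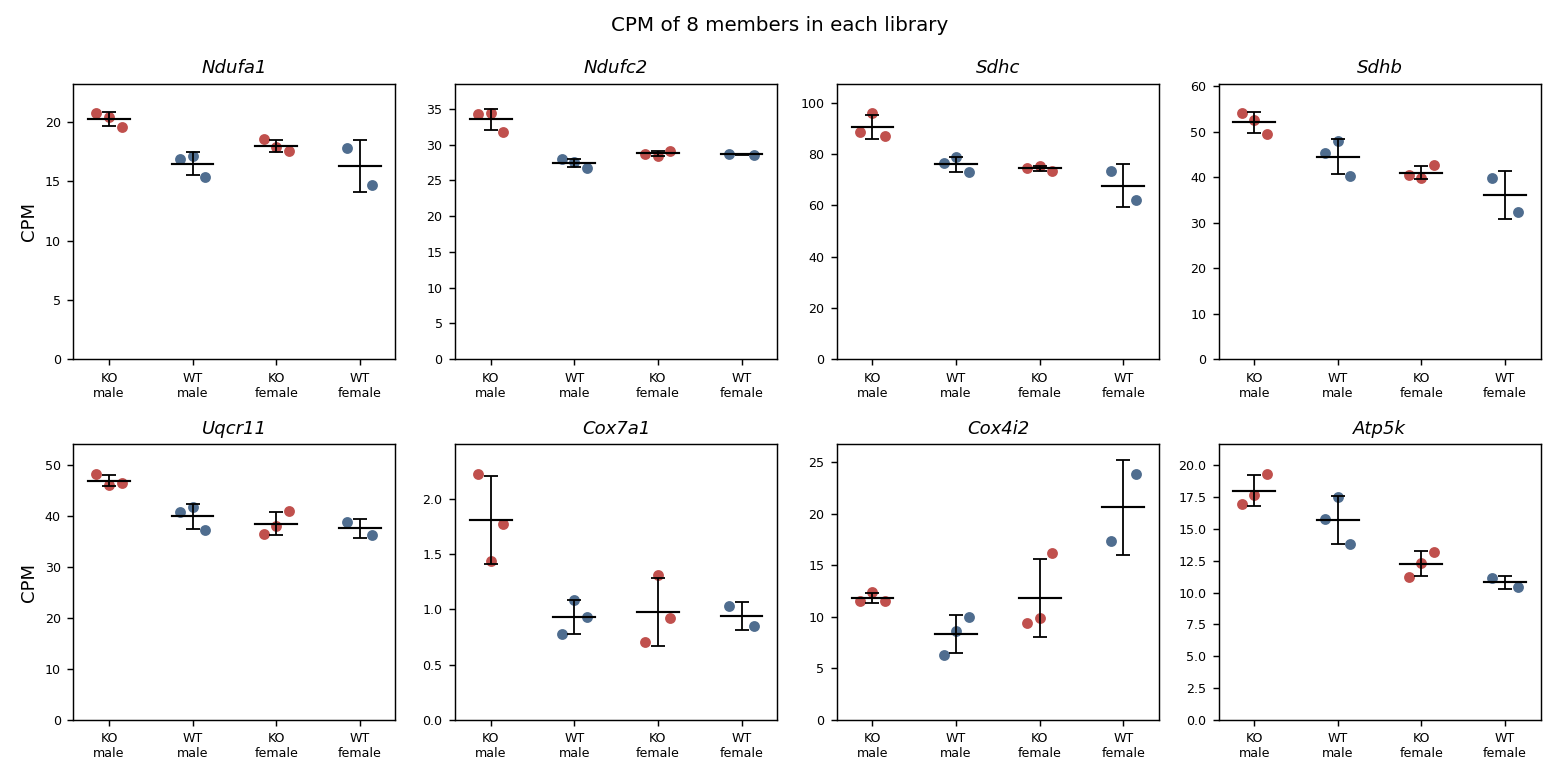
CPM of Ndufa1, Ndufc2, Sdhc, Sdhb, Uqcr11, Cox7a1, Cox4i2 and Atp5k in each library (points) with the mean and SD of each group, in the order KO male, WT male, KO female, WT female. In males the KO points stand above the WT points for every gene shown but Atp5k, whose male groups overlap; in females KO lies below WT for Cox4i2 and above it for Atp5k, and the female groups overlap for the other 6.

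In the males the genes were mostly higher in KO, and none passed the test. In KO males against WT males 72 of 85 genes were positive, with a median log2 fold change of 0.13 beside −0.016 over all entries, and 34 of 85 genes separated the 3 KO from the 3 WT libraries upward and 0 downward, where 17.3% of entries did so upward and 14.1% downward. At an unadjusted p below 0.05, 18 genes were higher and 0 lower, against 12.4% and 10% of entries. Without WT male 3 there were 10 higher, with 60 of 85 genes positive, and without WT female 2 there were 27. With p-values adjusted over all entries 0 genes passed, beside 1.8% of entries, and the smallest adjusted p was 0.0619, for Ndufc2. The other genes nearest the threshold were Cox7a1 (log2 fold change 0.96 ± 0.26 (SE), adjusted p = 0.0713), Ndufa2 (0.24 ± 0.072 (SE), adjusted p = 0.0887), Ndufa1 (0.30 ± 0.10 (SE), adjusted p = 0.106) and Atp5e, the epsilon subunit (0.31 ± 0.10 (SE), adjusted p = 0.106). The medians by complex were 0.11 in I, 0.24 in II, 0.13 in III, 0.18 in IV and 0.059 in V. Without WT male 3 they were 0.0664, 0.166, 0.0721, 0.0927 and 0.018, in the same order, with 9 of 18 genes of complex V positive, and without WT male 1 that of complex V was 0.106. Under the 3 other scalings of library size the median over the genes was 0.113 to 0.124, and without WT male 3 it was 0.067. Of the exon bases of Ndufa2, 11.5% lie under another gene on the opposite strand.

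This result in males depended on the tool. DESeq2 called 5 genes higher in KO males (Ndufa2, Ndufc2, Cox6b1, Cox7a1 and Atp5h), beside 9.61% of entries called in either direction. limma-voom with sample quality weights called 10 genes there, all higher, beside 19.1% of entries, and 4 genes over both sexes (Ndufa1, Ndufa2, Ndufc2 and Sdhc), beside 12.5%. Leaving out WT female 2 called 7 genes in males (Ndufa1, Ndufa2, Ndufc2, Sdhc, Cox7a1, Atp5e and Atp5g2), beside 9.59%. Leaving out WT female 1 called 4 in males, beside 8.58%, and 2 over both sexes, Ndufa1 and Sdhc, beside 7.06%. Each of these counts is a smaller share of the genes than that of entries called in either direction under the same setting. The genes called were all higher in KO, however. Entries called higher in KO males numbered 1294 of 22298 with DESeq2 and 2381 of 22298 with voom. Beside entries called higher only, the share of the genes was not smaller with these tools in males.

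In females the genes were spread around 0. In KO females against WT females 47 of 85 were positive and the median log2 fold change was 0.017, below the 0.027 of all entries. The test called 0 genes, beside 0.00448% of entries. At an unadjusted p below 0.05, 0 genes were higher and 4 lower, where 2.48% and 4.17% of entries were; these were Cox4i2, Cox6a2, Cox7a2l and Cox8a, which all had their highest value in WT female 2. KO and WT separated without overlap upward in 4 genes and downward in 12, against 11.3% and 8.44% of entries. With only 2 WT females, 1 library moves these values: without WT female 2 the median was −0.024 with 32 of 86 genes positive, and without WT female 1 the test called 13 genes, beside 16% of entries, with WT female 2 as the only WT female.

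**Figure D4:**
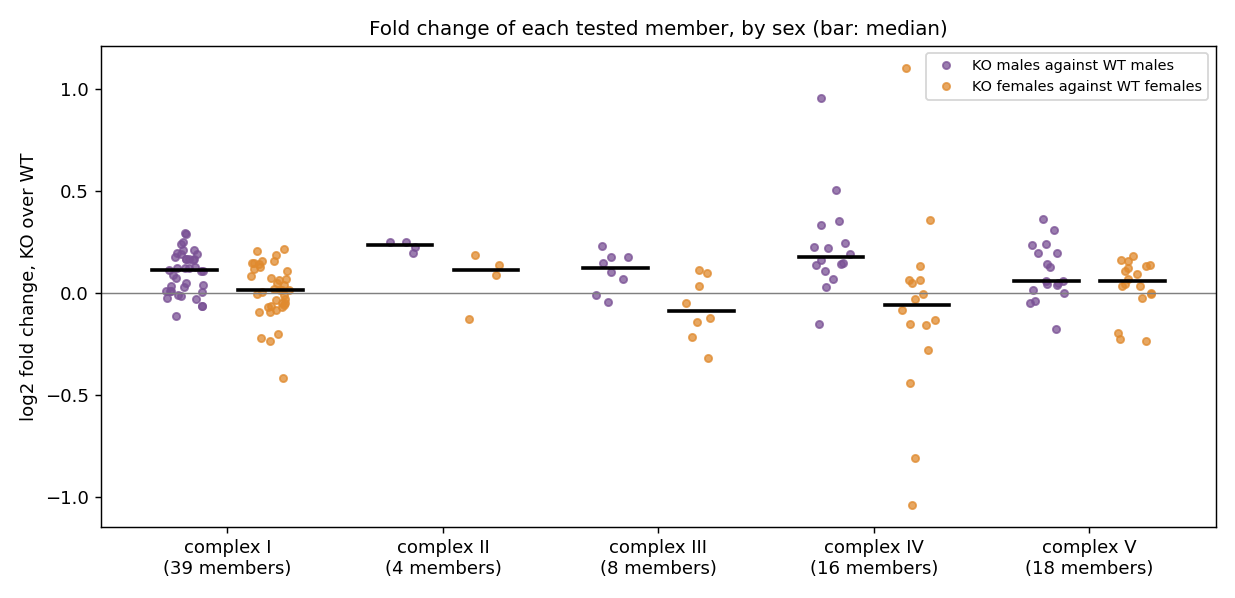
Fitted log2 fold change (KO over WT) of each of the 85 genes tested, by complex, for males and for females; each point is 1 gene and the black bars are medians. The male medians, 0.059 to 0.24, lie above 0 in all 5 complexes, and the female medians lie below 0 in complexes III and IV.

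The effect of KO was lower in females than in males for 58 of 85 genes, with a median difference of −0.12 on the log2 scale. The interaction test called 0 genes, beside 0% of entries (0 of 22298), and at an unadjusted p below 0.05 it had 15 genes with the lower effect in females and 0 with the higher, where 7.05% and 5.95% of entries did. The 7 genes Ndufs6, Sdhd, Uqcr10, Cox4i2, Cox7a2, Atp5e and Atp5g2 were higher in KO in males and lower in KO in females, each without overlap of the groups, or 7 of 85 beside 0.848% of entries. Cox4i2 had the smallest p of the difference, −1.32 ± 0.34 (SE), adjusted p = 0.304, and DESeq2 called it alone among these genes (adjusted p = 0.043, beside 1.01% of entries). Without WT female 1 the interaction test called 11 genes, beside 10.9% of entries, again with WT female 2 as the only WT female. Whether the difference belongs to sex or to the naming set of the files cannot be told apart.

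Genes of this chain passed the test between males and females, always with the higher level in males. In males against females, with genotype as a covariate, 71 of 85 genes were positive with a median log2 fold change of 0.16. The test called 8 genes higher in males and 0 lower, beside 4.82% of entries. At an unadjusted p below 0.05, 40 genes were higher and 2 lower, against 14.8% and 12.9% of entries, and 13 genes separated the 6 males from the 5 females upward and 0 downward, against 3.4% and 1.98%. The genes called were Ndufa4, Ndufb7 and the core subunit Ndufv2 of complex I, Sdhb of complex II, Cox5a and Cox7b of complex IV, and Atp5f1, the b subunit of the stalk, and Atp5k of complex V. Atp5k had 17.0, 17.7 and 19.3 CPM in KO males and 15.8, 17.5 and 13.8 CPM in WT males, against 11.3, 12.3 and 13.2 CPM in KO females and 11.2 and 10.4 CPM in WT females. Every male library was above every female library, and the log2 fold change was 0.55 ± 0.083 (SE), adjusted p = 0.0116. Ndufb7, an accessory subunit, had 19.1, 19.0 and 21.5 CPM in KO males and 20.2, 21.3 and 16.9 CPM in WT males, against 14.2, 16.9 and 14.2 CPM in KO females and 14.8 and 13.7 CPM in WT females. Its lowest male, WT male 3, and its highest female, KO female 2, had the same value to 3 digits (0.42 ± 0.086 (SE), adjusted p = 0.0312). Exons of Cox5a and Atp5f1 lie partly (12.8% and 13.2%) under other genes. The remaining called genes had log2 fold changes of 0.27 to 0.37 and adjusted p of 0.0342 to 0.0498.

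The number called in this contrast ran from 1 to 19 as each library was left out in turn, and 7 of the 8 genes were not called without WT female 2, which left Atp5k (log2 fold change 0.52, adjusted p = 0.0239), beside 1.82% of entries, while 77 of 86 genes were positive. Without WT female 1 the test called 19 genes, beside 14.7% of entries, and without WT male 3 it called 13, beside 8%. RLE size factors called 5 genes beside 3.95% of entries, the other scalings 5 each beside 4.22% and 4.2%, and the test without a low-count filter 4 beside 2.59%. DESeq2 called 16 beside 12.8% and limma-voom 51 of 85 beside 26.7%. The 12 proliferation genes were all higher in males, 11 of them at an unadjusted p below 0.05 and 3 called, with sums of 829.3, 925 and 876 CPM in KO males and 1324, 988 and 629 CPM in WT males, against 574, 559 and 615 CPM in KO females and 606 and 305 CPM in WT females. All 12 were detected above 1 CPM, and their part in the result was not tested. Other nuclear-encoded mitochondrial lists also leaned toward males. Of 78 mitochondrial ribosomal proteins 72 were higher in males, with a median log2 fold change of 0.16 and 4 called. All 13 tricarboxylic acid cycle genes were higher (median 0.17, 0 called), and 43 of 48 assembly factors (median 0.11, 1 called). Of 78 cytosolic ribosomal proteins only 2 were higher in males. The higher level in males was thus not particular to the respiratory chain. The sex difference and the naming set of the files cannot be told apart here either.

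The subunits encoded in mitochondrial DNA had the opposite sign to most nuclear-encoded ones. All 13 had negative log2 fold changes in KO against WT over both sexes, with a median of −0.20, and 0 were called. Their summed level was 7829, 7152 and 7216 CPM in KO males against 8959.9, 8325 and 7585 CPM in WT males, and 9462, 9152 and 10132 CPM in KO females against 9374 and 13358 CPM in WT females. Within the males KO and WT overlapped, and WT female 2 again held the highest value. The smallest p over both sexes belonged to mt-Nd5 (−0.27, adjusted p = 0.271), mt-Nd4 (−0.23, 0.332) and mt-Nd6 (−0.37, 0.341), all of complex I. In males against females all 13 were lower and 3 were called, the opposite direction to the nuclear-encoded genes.

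None of the other lists of mitochondrial genes had a member called in KO against WT, in either sex or over both. Of 48 assembly factors of the complexes, 27 were positive, 3 higher and 2 lower at an unadjusted p below 0.05, with a median of 0.009. The nearest were Cox18, an inserter of complex IV subunits (−0.48, adjusted p = 0.173), Pet100, a complex IV assembly factor (0.32, adjusted p = 0.173), and Ttc19, of complex III (−0.22, adjusted p = 0.2). Of 13 coenzyme Q synthesis genes 6 were positive, led by Coq10b (−0.41, adjusted p = 0.175), Coq3 (−0.28, adjusted p = 0.225) and Coq4 (0.24, adjusted p = 0.427). Of 13 tricarboxylic acid cycle genes 8 were positive, led by Ogdh (0.24, adjusted p = 0.189), Mdh2 (−0.19, adjusted p = 0.24) and Idh3a (−0.24, adjusted p = 0.443). Of 11 regulators of mitochondrial biogenesis tested 6 were positive, led by Pprc1 (−0.18, adjusted p = 0.412), Gabpb1 (−0.15, adjusted p = 0.418) and Tfb1m (0.18, adjusted p = 0.486). Of 8 electron carriers and subunits outside the naming rule 3 were positive, led by Etfdh (0.13, adjusted p = 0.393) and cytochrome c, Cycs (−0.18, adjusted p = 0.626).

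Of 21 glycolysis and hypoxia-responsive entries 11 were positive, led by Hk1 (0.23, adjusted p = 0.231), Pdk1 (0.29, adjusted p = 0.247) and an Aldoa entry under 2 CPM (−0.32, adjusted p = 0.389), with sums of 13244 to 15050.4 CPM in KO and 12854 to 15370.3 CPM in WT. Of 78 mitochondrial ribosomal proteins 41 were positive with a median of 0.005, led by Mrps21 (0.18, adjusted p = 0.175), Mrpl36 (0.33, adjusted p = 0.239) and Mrpl15 (−0.17, adjusted p = 0.262). Of 78 cytosolic ribosomal proteins 1 was positive, with a median of −0.099, led by Rpl18 (−0.17, adjusted p = 0.274), Rpl13a (−0.16, adjusted p = 0.277) and Rpsa (−0.14, adjusted p = 0.31). In females 26 of those 78 were lower at an unadjusted p below 0.05, and in males 1. The median log2 fold change was −0.23 in females, while in males it was 0.009 with 47 of 78 positive. WT female 2 held the highest sum of this list, 37002 CPM, against 26373 to 31179 CPM in the other libraries.

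Contractile genes and markers of other cell types also differed between KO and WT males. All 10 leukocyte and macrophage markers tested were higher in KO males at an unadjusted p below 0.05 and 4 were called, with sums of 11708, 10298 and 6837 CPM in KO males against 4956, 6525 and 4869 CPM in WT males, and 7085, 7479 and 6683 CPM in KO females against 6936 and 5628 CPM in WT females. All 10 contractile markers were lower in KO males and 4 were called, with sums of 1765, 2353 and 2806 CPM in KO males against 5594, 3636 and 6227 CPM in WT males, and 4972, 3001 and 3599 CPM in KO females against 3801 and 2929 CPM in WT females. Of 6 epithelial markers tested, 6 were lower in KO males and 1 was called, at 10.1 to 13.3 CPM in KO males against 22.1 to 46.5 CPM in WT males, with Epcam, Cdh1 and Scgb1a1 under 1 CPM. Of 7 endothelial markers tested only 2 were higher in KO males, 1 of them called, and the median log2 fold change was −0.93. At an unadjusted p below 0.05, 2 were higher and 4 lower, and over both sexes 3 of the 7 were higher. Their sums were 55.3 to 101 CPM in KO males and 39.9 to 88.4 CPM in WT males, with Tek and Cldn5 under 1 CPM. Over both sexes the smallest p in these lists belonged to Ptprc and Mrc1 among leukocyte markers (log2 fold change 0.54 and 0.90), Tagln among contractile (−0.67), Krt19 among epithelial (−0.60) and Vwf among endothelial markers (0.76), with adjusted p of 0.173 or more. Whether the contractile transcripts came from the fibroblasts themselves or from other cells cannot be told apart in bulk RNA. The part of these genes and cells in the values of the respiratory genes was not tested.

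Striated muscle markers, which bear on the muscle forms Cox6a2 and Cox7a1, summed to 6.70 to 15.5 CPM in KO and 10.3 to 57.5 CPM in WT over 12 genes, of which 10 were under 1 CPM on average, among them Ckm, Mb and all myosin heavy chains of the list. The highest sum, 57.5 CPM, was that of WT female 2, the library that also had the highest Cox6a2, and its main part was Acta1, at 54.3 CPM there and 4.38 to 23.7 CPM in the other libraries. Cox7a1 had its highest values in the KO males. The part of muscle cells in the values of Cox6a2 and Cox7a1 was not tested. Adipocyte markers, relevant because brown fat is rich in these complexes, summed to 34.1 to 86.6 CPM in KO and 22.3 to 76.3 CPM in WT over 7 genes, almost all from Fabp4 and Pparg.

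WT female 2 set many of the extremes named above. It held the highest or lowest CPM of the 11 libraries in 60% of the 85 genes, 18 highest and 33 lowest, and in 54.2% of all entries tested. Furthest below the other libraries was Cox5b, a complex IV subunit, at 28.4 CPM against 48.1 to 67.6 CPM elsewhere, followed by Ndufb8 at 27.1 CPM against 36.4 to 46.2 and Ndufa9 at 23.7 CPM against 31.4 to 40.4. Furthest above, after Cox6a2 and Cox7a2l, were Ndufa6 at 53.0 CPM against 21.6 to 36.9 and Uqcrh, the hinge protein of complex III, at 68.9 CPM against 38.5 to 49.1. Subunits of complex IV lay on both sides of the other libraries, its complex IV sum was the highest of the series and its complex V sum the lowest. Without it 22 of the 85 fold changes over both sexes changed sign, 11 in each direction. The median log2 fold change was then 0.091 with 69 of 86 genes positive, 15 of them at an unadjusted p below 0.05 and 0 called.

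**Figure D5:**
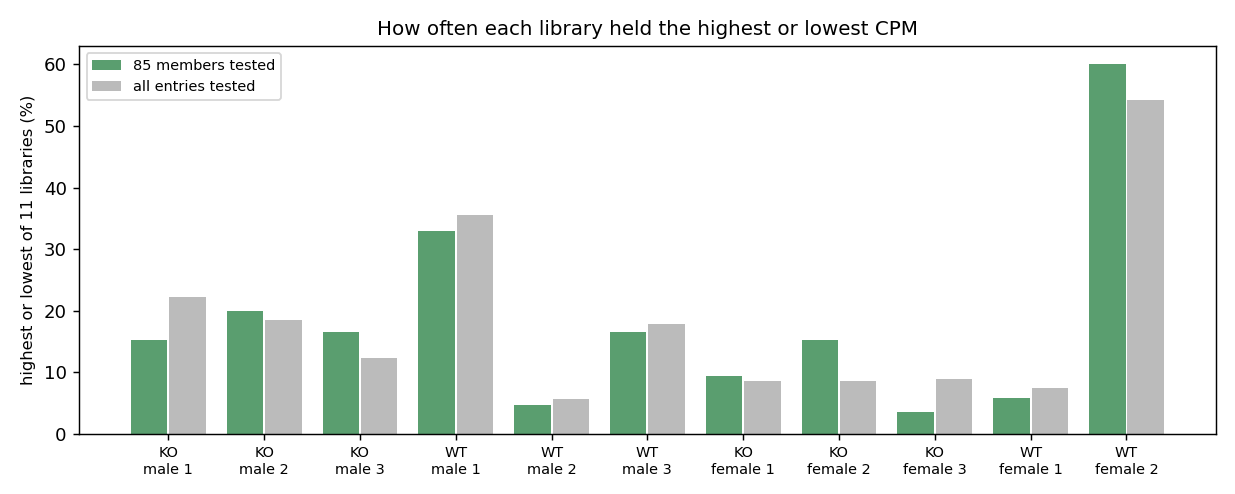
Share of the 85 tested genes (green) and of all 22298 tested entries (grey) for which each library held the highest or the lowest CPM of the 11. WT female 2 stands out at 60% and 54.2%, and WT male 1 follows at 32.9% and 35.6%.

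Genes with and without promoter motifs had similar median fold changes, given here with no test. Over both sexes the median log2 fold change was 0.061 for the 36 tested genes with NRF1-type, ETS or YY1 letters in the window (30 positive) and 0.054 for the 31 with a window and none of them (24 positive). In KO males against WT males the medians were 0.12 and 0.15. The transcripts of the factors themselves, Nrf1, Gabpa, Gabpb1 and Yy1, were among the 11 regulators tested, none of which was called.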

How the data were processed

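Total RNA libraries of 11 lung fibroblast samples were analysed from deposited raw read counts per gene and repeat subfamily. The authors' processing used Trim Galore, STAR and GRCm39, per the submitters' processing notes, and the counting tool and strand setting are not given in the sources used here. Symbols were taken from a reference table of gene names, in which 52073 of 56980 Ensembl genes had one, and transcript lengths, biotypes and overlaps from an older GENCODE annotation on GRCm38. Each count table column belongs to 1 sample, and replicates are separate mice, per the series' design text.

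edgeR 4.0.16 (R 4.3.3) was used for quasi-likelihood tests on the counts with TMM scaling over all entries, a filter with a minimum count of 10, and Benjamini-Hochberg adjustment over 22298 entries (58223 in the tables) at 0.05. The KO against WT comparison over both sexes had sex as a covariate (8 residual degrees of freedom), and 4 group means gave the values within each sex and their difference (7 residual degrees of freedom). CPM values are scaled by TMM. The test was also run on simulated counts with planted changes, a single fixed spread, no sex effect and no deviating library. That run cannot show how the test behaves with the spread of these libraries. Alternatives used DESeq2 1.42.0, limma 3.58.1 (voom with sample quality weights), other scalings, no filter, each library left out and a replicate block.

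The genes and the other lists were chosen with earlier results of these data known, and the male against female contrast was added after the data were seen. Named genes were, in each complex, the 3 with the smallest p over both sexes and the 3 with the highest mean CPM, all called genes, isoform pairs, genes under the filter, and the 3 genes with the smallest p of each other list. A gene that this rule names is not reported here. Genes named for opposite directions in the sexes, for WT female 2 or for calls under other settings were chosen after their values were seen. Promoter sequences are from RefSeq (GRCm38.p6), a build other than that of the counts, and were matched by symbol. Of the 89 genes, 13 have more than 10% of their exon bases under another gene and 46 share a 50-base stretch with one.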

Additional observations from a re-analysis of the deposited data

Results flagged for a closer look

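In 7 of 180 groups of genes by genotype, the most extreme library lay further from the others than Dixon's 95% critical value allows, and chance flags about 1 in 20 groups. WT female 2 was that library for 6 genes. Its CPM among the WT libraries was 34.7 for Ndufs1, a core subunit of complex I, 71.5 for Uqcrc2, 68.9 for Uqcrh, 3.03 for Cox6a2, 131.8 for Cox8a and 19.8 for the Atp5o entry ENSMUSG00000116933. It was lowest for Ndufs1 and Atp5o and highest for the other 4. The remaining case was Ndufs6b, a processed pseudogene, at 0.606 CPM in WT male 2.

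For 7 genes every KO female lay below every WT female and every KO male above every WT male. The effect of KO in females minus that in males, on the log2 scale, was −0.213 for Ndufs6, −0.375 for Sdhd, −0.39 for Uqcr10, −1.32 for Cox4i2, −0.293 for Cox7a2, −0.533 for Atp5e and −0.475 for Atp5g2. The interaction test in edgeR gave adjusted p of 0.304 or more for each, so these differences were not called. All 7 rest on 2 WT females.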

How the results depend on the processing

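Of 926 alternative values, 838 kept their direction and their side of the threshold or stayed within the spread of the main value. Over both sexes 0 genes were called in the main test and 4 with voom, in males 0 against 5 with DESeq2 and 10 with voom, and for the difference between the sexes 0 against 1 with DESeq2. In males against females 8 were called, against 5 with RLE size factors and with each of the other scalings, 4 without the low-count filter, 16 with DESeq2 and 51 with voom. Leaving out 1 library gave 0 to 2 called genes over both sexes, 0 to 13 in females, 0 to 7 in males, 0 to 11 for the difference and 1 to 19 in males against females.

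The median log2 fold change over leave-one-outs ran from 0.0135 (without WT male 3) to 0.0912 over both sexes, 0.0668 to 0.148 in males, 0.0664 to 0.133 for complex I in males, 0.0219 to 0.188 for complex II in females, −0.0322 to 0.0947 for complex III over both sexes, −0.19 to −0.0449 for complex III in females, −0.177 to −0.0232 for complex IV in females and −0.0439 to 0.141 for complex V in females. With library sizes of genes without repeats the summed CPM of complex I was 1284 in KO and 1269 in WT, of complex II 326.7 in WT, of complex III 460.9 in WT and of complex V 2007 in KO.

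Some genes changed sign over both sexes: with voom Uqcrq −0.04, Cox7a2l 0.21, Cox8a 0.12, Cox4i2 0.27, Cox6a1 0.04 and Atp5g3 −0.02, and Cox7a2 −0.01 with DESeq2 and with scaling over genes without repeats. Over leave-one-outs the values ran from −0.06 to 0.23 for Ndufa4l2, −0.04 to 0.12 for Uqcrq, −0.03 to 0.1 for Uqcrb, −0.11 to 0.25 for Cox7a2l, −0.07 to 0.14 for Cox8a, −0.27 to 0.13 for Cox4i2, −0.09 to 0.03 for Cox6a1, −0.05 to 0.07 for Cox7a2, −0.01 to 0.07 for Ndufa4, −0.09 to 0.07 for Atp5g1, −0.02 to 0.15 for Atp5g2 and −0.04 to 0.1 for Atp5g3. The cause was not tested.

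With the replicate block the median over both sexes was 0.0578 and 0 genes were called, and Cox7a2l (0.04) and Cox8a (0.02) changed sign. Same-numbered samples did not deviate together (r of −0.145 to 0.0734). The deviations are from means of few libraries and sum to 0 within a group, so r cannot decide whether the numbers pair the samples. The share of promoters with TATAAA was 4.41% in a window from 100 bases before to 50 after the start. That was 3 of 68 genes (Wilson interval 1.51% to 12.2%), beside 8.04% of 17491 protein-coding genes, a share inside the interval. With 2 WT females, every female value rests on few libraries.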
